A study of Homo sapiens with 6 samples.

Results

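The 10 genes described here act in moving copper, platinum drugs and osmolytes into, within or out of cells. They were taken by gene symbol from a table of 28565 genes. They are SLC31A1, of copper entry, its relative SLC31A2, ATOX1, a copper chaperone, and ATP7A and ATP7B, of copper export. The others are ABCC2, ABCC4 and ABCG2, which pump drugs and conjugates out of cells, and LRRC8A and LRRC8D, of the volume-regulated anion channel. All 10 were present in the table and all 10 passed the filter on low counts. The samples were 3 libraries of HK-2 cells exposed to cisplatin, a DNA-crosslinking platinum drug, for 24 h, and 3 libraries of HK-2 cells at 0 h of cisplatin. The cells of all 6 libraries, at both times, carried a plasmid that overexpresses LncR2, the titles' name for a long noncoding RNA, and had been incubated for 48 h after its transfection. The comparison is thus of cisplatin exposure in cells with that plasmid, and not of the noncoding RNA. HK-2 is a single immortalised line of human proximal tubule epithelium. Cells with a control plasmid were not analysed here, and cisplatin cannot be told apart from time after transfection.

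Copper enters human cells mainly through SLC31A1 (CTR1), is handed by the chaperone ATOX1 to the pumps ATP7A and ATP7B, and leaves through them or is loaded into secreted enzymes. Cisplatin binds the same cysteine and methionine sites that carry copper, and SLC31A1, ATP7A and ATP7B have each been linked to its entry, trapping or export. A second route is the volume-regulated anion channel, a hexamer that needs LRRC8A and that passes cisplatin and taurine best when LRRC8D is part of it. In the proximal tubule, the segment that cisplatin injures, the organic cation transporter SLC22A2 (OCT2) takes the drug up from the blood side, and ABCC2 and ABCC4 sit in the apical membrane.

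The chaperone and both pumps share a coding feature that the choice of genes did not use. It is the copper-binding motif of methionine, any residue, cysteine, any 2 residues and cysteine, searched in frame on the coding strand as ATG, any codon, TGT or TGC, any 2 codons, TGT or TGC. The sites are shown because they are where these proteins hold copper. In the GENCODE 29 coding sequences (GRCh38), ATP7A held 6 copies, ATP7B held 6 and ATOX1 held 1, in coding sequences of 1500, 1465 and 68 codons. Of 19491 genes with a complete coding sequence, 1.31% held at least 1 copy, and 2 held 6 or more, ATP7A and ATP7B themselves. LRRC8A also held 1 copy, and the other 6 transport genes held 0. Capitals mark the methionine codon and both cysteine codons, 5′ to 3′.
ATOX1 coding sequence, codons 1 to 68: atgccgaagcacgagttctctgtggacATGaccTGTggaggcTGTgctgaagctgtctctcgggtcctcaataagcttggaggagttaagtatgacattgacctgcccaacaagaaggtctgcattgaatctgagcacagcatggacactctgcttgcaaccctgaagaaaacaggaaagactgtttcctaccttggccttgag
ATP7A site 1, codons 17 to 22: ATGactTGCaattccTGT
ATP7A site 2, codons 180 to 185: ATGaccTGCcattcaTGT
ATP7A site 3, codons 286 to 291: ATGcatTGTaaatcaTGT
ATP7A site 4, codons 386 to 391: ATGactTGTaattccTGT
ATP7A site 5, codons 497 to 502: ATGactTGCgcttccTGT
ATP7A site 6, codons 573 to 578: ATGacgTGTgcctccTGC
ATP7B site 1, codons 67 to 72: ATGactTGCcagtcaTGT
ATP7B site 2, codons 152 to 157: ATGaccTGCcagtccTGT
ATP7B site 3, codons 266 to 271: ATGcatTGTaagtctTGC
ATP7B site 4, codons 368 to 373: ATGaccTGTgcatccTGT
ATP7B site 5, codons 497 to 502: ATGaccTGTgcatccTGT
ATP7B site 6, codons 573 to 578: ATGaccTGCgcgtccTGT
The last 2 sites stand at the same codons in both pumps, 497 to 502 and 573 to 578. The longest run of identical bases between any transcripts of ATP7A and ATP7B was 24 bases, and it was 23 between SLC31A1 and SLC31A2 and 14 between LRRC8A and LRRC8D, all short of a sequenced read of 150 nucleotides.

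After 24 h of cisplatin none of the transport genes passed the test. Among the 10 genes, 0 were higher and 0 were lower at an adjusted p under 0.05 (edgeR, quasi-likelihood, Benjamini-Hochberg over 13389 genes). Of all tested genes 2.94% were called, 0.866% higher and 2.08% lower at 24 h. DESeq2 and limma-voom also called 0 of the 10. Among all genes DESeq2 called 338 of the 28565 in the table, given to it without the filter on low counts. For limma-voom it was 352 of the 13389 filtered genes. At an unadjusted p under 0.05 there was 1 of 10, ATP7A, against 18.1% of all genes. Their median log2 fold change was 0.04, beside -0.002 for all genes, with a range from -0.34 to 0.38. The 95% intervals of all 10 excluded a 2-fold change in either direction, and those of 6 excluded a 1.5-fold change. These intervals hold for TMM scaling, which sets the typical gene to no change. In bulk RNA, fewer cells of a type and less RNA per cell cannot be told apart.

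**Figure D1:**
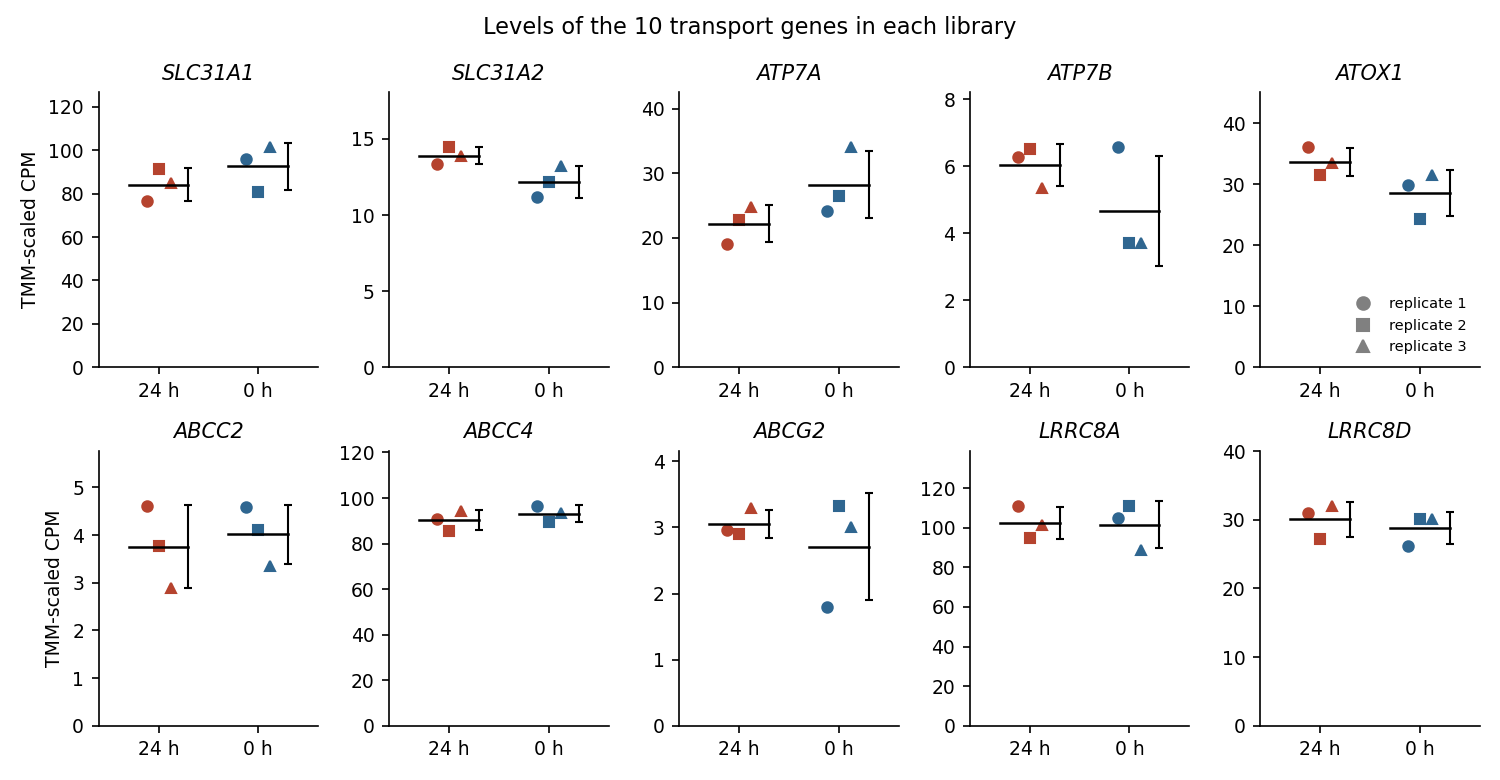
Level of each transport gene in each library, in CPM (reads scaled to library size, with TMM), with 24 h left of 0 h in every panel. Points are libraries with the symbol giving the replicate number, lines are means and bars are SD (n = 3). The 24 h and 0 h libraries overlapped for 9 of the 10 genes, all but SLC31A2.

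Total counts were between 6022268 and 7248754 reads in the 24 h libraries and between 5028881 and 5844246 reads in the 0 h libraries. The library of 0 h replicate 3 stood apart on the second principal component of log2 CPM, at -31.6, against 8.67 and -1.43 in 0 h replicates 1 and 2. On the first component, which held 39% of the variance, it was at 1.35. There 0 h replicates 1 and 2 were at -24.7 and -25.4, and 24 h replicate 1 lay nearest at 6.39. By Spearman correlation of log2 CPM, however, 0 h replicate 3 was most like 24 h replicate 3 (0.989). Its correlations with 0 h replicates 1 and 2 were 0.983 and 0.986. The labelled cell type was only partly visible. The kidney transcription factor PAX8 had 2198 to 2464 counts at 24 h and 1842 to 2359 counts at 0 h, and the epithelial keratin KRT8 had 2077 to 2817 counts at 24 h and 1604 to 2096 counts at 0 h. Of 6 epithelial markers 5 passed the filter, and CDH1, the epithelial cadherin, had 0 or 1 count in every library. By contrast, of 14 proximal tubule markers 11 had a row and 3 passed the filter, with a summed level of 315.7 to 421.5 CPM at 24 h and 337.5 to 481.6 CPM at 0 h that was mostly PAX8, and the brush-border enzyme ANPEP had 0 counts in all 3 libraries at 24 h and 1 count in 1 library at 0 h. Markers of endothelium and leukocytes were low. Endothelial markers summed to 0 to 0.434 CPM at 24 h and 0 to 0.399 CPM at 0 h. Leukocyte markers summed to 1.23 to 3.47 CPM at 24 h and 2.19 to 2.83 CPM at 0 h. Fibroblast markers summed to 16.73 to 20.45 CPM at 24 h and 15.95 to 18.03 CPM at 0 h. The highest of them, LUM, had 10.6 to 14.2 CPM at 24 h and 8.17 to 10.2 CPM at 0 h, above ATP7B, ABCC2 and ABCG2. In the endothelial and leukocyte lists, 3 of 5 and 3 of 6 genes had a row, and VWF was at 0 in all 24 h libraries. Their part in the results was not tested.

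Neither SLC31A1 nor SLC31A2 passed the test. SLC31A1, the high-affinity copper importer, had 76.5, 91.3 and 84.8 CPM at 24 h, against 95.9, 80.6 and 101.5 CPM at 0 h. The groups overlapped, with 24 h replicate 1 lowest and 0 h replicate 3 highest. Its log2 fold change was -0.14 ± 0.11 (SE, n = 3 per group) with a 95% interval from -0.38 to 0.10, and it did not pass (edgeR adjusted p = 0.567). As a fold, the interval ran from 0.770 to 1.07. Leaving out 1 library gave values from -0.23 (without 0 h replicate 2) to -0.06 (without 0 h replicate 3). The direction flipped to 0.11 when libraries were scaled by the totals behind the FPKM values, again without a call (edgeR adjusted p = 0.588).

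SLC31A2 (CTR2), a relative of SLC31A1 found mostly on inner membranes, had 13.4, 14.5 and 13.9 CPM at 24 h, against 11.2, 12.2 and 13.2 CPM at 0 h. Its 24 h libraries all lay above its 0 h libraries. It was the only one of the 10 genes whose groups did not overlap in CPM (1 of 10), against 22.6% of all genes, 10.9% higher and 11.7% lower at 24 h. The log2 fold change of SLC31A2 was 0.19 ± 0.16 (SE, n = 3 per group; 95% interval from -0.15 to 0.53; edgeR adjusted p = 0.588), and 0.26 without 0 h replicate 3. In GENCODE 29, 63.1% of its exonic bases lie under exons of FKBP15 on the opposite strand. The use of strand in the counting is not given in the sources used here, so reads of SLC31A2 and FKBP15 may be mixed or dropped. FKBP15 had 57.9 to 65.7 CPM at 24 h and 59.3 to 62.8 CPM at 0 h, with a log2 fold change of 0.04 ± 0.11 (SE, n = 3 per group), and its part in the value of SLC31A2 was not tested.

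ATOX1, the chaperone that carries copper to the pumps, had 36.1, 31.6 and 33.5 CPM at 24 h, against 29.9, 24.3 and 31.6 CPM at 0 h. The groups overlapped narrowly, at 31.55 CPM in 24 h replicate 2 and 31.6 CPM in 0 h replicate 3, and 0 h replicate 2 was the lowest. The chaperone's log2 fold change was 0.23 ± 0.13 (SE, n = 3 per group; 95% interval from -0.05 to 0.52), which did not pass (edgeR adjusted p = 0.373). It was 0.13 without 0 h replicate 2 and 0.32 without 0 h replicate 3 (edgeR adjusted p = 0.814 and 0.159). Scaled by the FPKM totals it was 0.47 ± 0.15 and was called (edgeR adjusted p = 0.0272), which makes 1 of the 10 genes higher and 0 lower, against 17.6% and 1.46% of all genes. The median log2 fold change of all genes was 0.24 under that scaling, and that of the 10 genes was 0.27. In GENCODE 29, 2.48% of the exonic bases of ATOX1 lie under exons of G3BP1 on the opposite strand. G3BP1 was far higher than ATOX1, with 313 to 359 CPM at 24 h and 322 to 357 CPM at 0 h. Its log2 fold change was -0.01 ± 0.10 (SE, n = 3 per group). As the use of strand in the counting is not given, some of its reads may be mixed with those of ATOX1, which was not tested.

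ATP7A, the copper pump of most tissues outside the liver, was the gene with the smallest p of the 10. It had 19.1, 22.7 and 24.8 CPM at 24 h, against 24.1, 26.5 and 34.1 CPM at 0 h. Only 24 h replicate 3 and 0 h replicate 1 overlapped, and 0 h replicate 3 was the highest. Its log2 fold change was -0.34 ± 0.16 (SE, n = 3 per group; 95% interval from -0.67 to -0.01), with an unadjusted p of 0.0418 and an edgeR adjusted p of 0.252. Without 0 h replicate 3 the value was -0.18 ± 0.16 (edgeR adjusted p = 0.519), and scaled by the FPKM totals it was -0.10 ± 0.17. With both changes together it turned to 0.06 ± 0.18. ATP7A shares 97 exonic bases on the same strand with PGK1, a glycolytic gene. PGK1 had 1117 to 1213 CPM at 24 h and 899 to 1096 CPM at 0 h. ATP7A also shares 287 exonic bases on the same strand with a pseudogene, AL356235.1, which had 18 counts over the 6 libraries. The share of ATP7A reads that fell in these shared bases was not measured.

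ATP7B, the copper pump best known from the liver, had few reads, with 38, 45 and 39 counts at 24 h, against 33, 19 and 21 counts at 0 h. These are 6.27, 6.51 and 5.35 CPM at 24 h, against 6.58, 3.72 and 3.71 CPM at 0 h. All 3 libraries at 24 h lay above 0 h replicates 2 and 3, and 0 h replicate 1 was above all of them. Its log2 fold change was the highest of the 10, 0.38 ± 0.27 (SE, n = 3 per group), with a wide 95% interval from -0.19 to 0.94 (edgeR adjusted p = 0.495). Without 0 h replicate 1 it was 0.70 ± 0.29 (edgeR adjusted p = 0.228), without 0 h replicate 2 it was 0.24 ± 0.29 and without 0 h replicate 3 it was 0.23 ± 0.28.

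**Figure D2:**
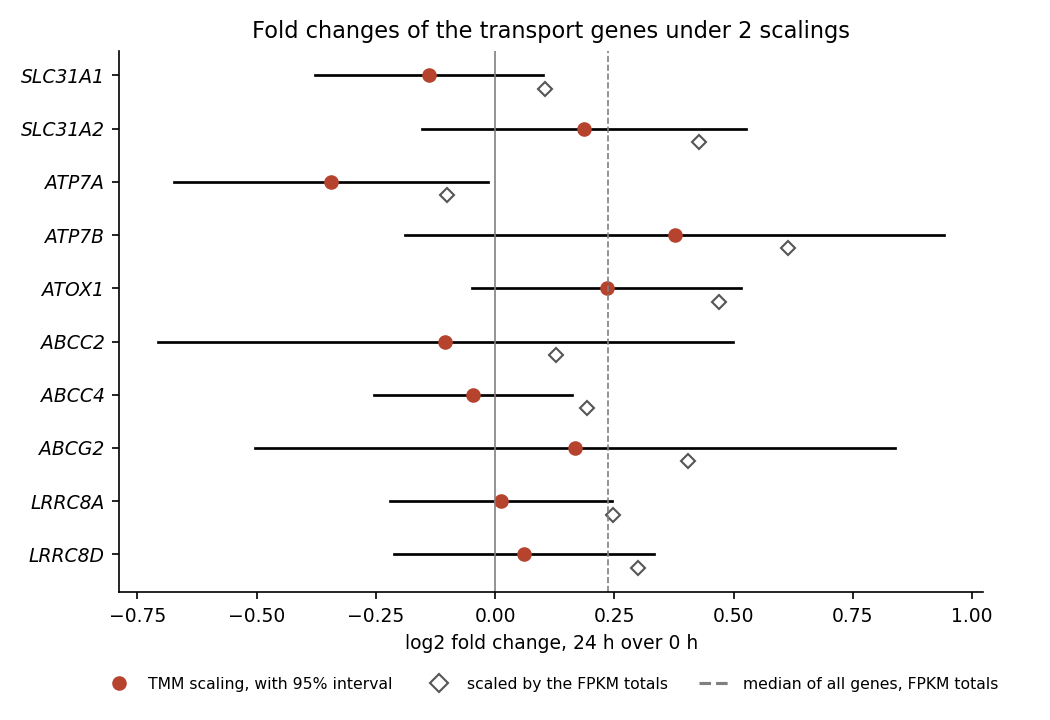
Log2 fold change of each transport gene, 24 h over 0 h. Filled points with 95% intervals are from TMM scaling, open diamonds from scaling by the FPKM totals, and the dashed line at 0.24 is the median of all genes under the second scaling. The interval of ATP7A ends at -0.01, and the other 9 intervals cross 0.

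Ratios of 2 genes within a library do not depend on how libraries are scaled. ATP7A had 3.05, 3.49 and 4.64 reads per ATP7B read at 24 h, against 3.67, 7.11 and 9.19 at 0 h. The 0 h libraries spread more widely, and 0 h replicate 1 lay among the 24 h libraries. The difference was -0.76 on the log2 scale (exact two-sided permutation p = 0.2, n = 3 per group, where 0.1 is the smallest p that 3 libraries against 3 allow). It was -1.14 without 0 h replicate 1 and -0.48 without 0 h replicate 3. SLC31A1 had 3.01, 3.12 and 2.81 reads per read of ATP7A plus ATP7B at 24 h, against 3.12, 2.67 and 2.69 at 0 h, a log2 difference of 0.08 (exact permutation p = 0.3, n = 3 per group). All 6 libraries had between 2.67 and 3.12 importer reads per pump read, and the groups overlapped. ATOX1 had 1.89, 1.39 and 1.35 reads per ATP7A read at 24 h, against 1.24, 0.919 and 0.928 at 0 h, without overlap. That ratio was chosen after the values were seen, and its log2 difference of 0.58 had an exact permutation p of 0.1, the smallest possible with n = 3 per group.

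**Figure D3:**
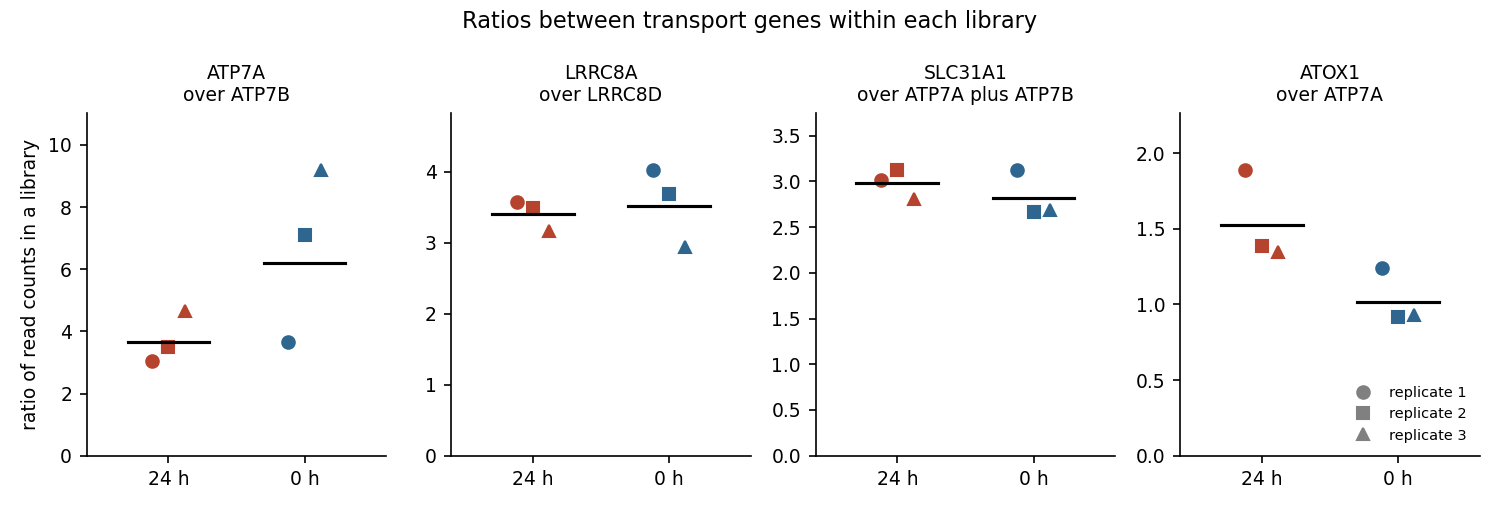
Ratio of read counts between transport genes within each library, with 24 h left of 0 h. Points are libraries with the symbol giving the replicate number, and lines are geometric means. Of the 4 ratios, only ATOX1 over ATP7A had no overlap between 24 h (1.35 to 1.89) and 0 h (0.919 to 1.24).

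None of the efflux pumps of the ABC family passed the test, and the counts of ABCC2 and ABCG2 were low. ABCC4 (MRP4), which exports cyclic nucleotides and organic anions, had 90.7, 85.5 and 94.2 CPM at 24 h, against 96.7, 89.4 and 93.2 CPM at 0 h. Its log2 fold change of -0.05 ± 0.10 (SE, n = 3 per group) had the narrowest interval of the 10, from -0.25 to 0.16 (edgeR adjusted p = 0.853), or 0.839 to 1.12 as a fold, and its sign flipped to 0.19 under FPKM totals. ABCC2 (MRP2), the pump for glutathione and glucuronide conjugates, had 28, 26 and 21 counts at 24 h, against 23, 21 and 19 counts at 0 h. As levels these were 4.62, 3.76 and 2.88 CPM at 24 h, against 4.59, 4.12 and 3.35 CPM at 0 h, and the groups overlapped. Its fold change was -0.10 ± 0.28 on the log2 scale (SE, n = 3 per group; 95% interval from -0.71 to 0.50; edgeR adjusted p = 0.886), and 0.13 under FPKM totals. ABCG2 (BCRP), a pump for urate and many drugs, had 18, 20 and 24 counts at 24 h, against 9, 17 and 17 counts at 0 h. The levels were 2.97, 2.89 and 3.29 CPM at 24 h, against 1.79, 3.33 and 3.001 CPM at 0 h, with 0 h replicate 1 alone at the low end. For ABCG2 the log2 fold change was 0.17 ± 0.32 (SE, n = 3 per group; 95% interval from -0.50 to 0.84; edgeR adjusted p = 0.833), and it turned to -0.05 without 0 h replicate 1. At these counts, changes that lie within the intervals of ABCC2 and ABCG2 were not excluded.

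Neither anion channel subunit passed the test. LRRC8A, the subunit without which the channel does not form, had 111, 95.1 and 102 CPM at 24 h, against 105, 111 and 88.6 CPM at 0 h. The log2 fold change of LRRC8A was 0.01 ± 0.11 (SE, n = 3 per group; 95% interval from -0.22 to 0.25; edgeR adjusted p = 0.966), or 0.858 to 1.19 as a fold, and -0.08 without 0 h replicate 3. LRRC8D, the subunit tied to cisplatin and taurine passage, had 31.0, 27.2 and 32.1 CPM at 24 h, against 26.1, 30.2 and 30.2 CPM at 0 h. The log2 fold change of LRRC8D was 0.06 ± 0.13 (SE, n = 3 per group; 95% interval from -0.21 to 0.33; edgeR adjusted p = 0.853). It shares 329 exonic bases on the same strand with a neighbouring gene model, AC093423.3. LRRC8A had 3.58, 3.49 and 3.17 reads per LRRC8D read at 24 h, against 4.02, 3.69 and 2.94 at 0 h, and 0 h replicates 1 and 3 enclosed the 24 h libraries (exact permutation p = 0.8, n = 3 per group).

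Per length, as a share of the summed FPKM of the 5 LRRC8 subunits, LRRC8A made up 48.9 ± 1.34% at 24 h and 49.0 ± 2.86% at 0 h (SD, n = 3 each). LRRC8D made up 16.2 ± 1.13% at 24 h and 15.8 ± 1.76% at 0 h. LRRC8E, a partner that changes how the channel conducts under oxidation, made up 19.8 ± 2.45% at 24 h and 18.4 ± 2.24% at 0 h. LRRC8B made up 9.1 ± 0.27% at 24 h and 10.8 ± 0.94% at 0 h, and LRRC8C made up 5.9 ± 0.79% at 24 h and 6.0 ± 1.22% at 0 h. LRRC8A thus held nearly as much of the summed FPKM as the other subunits combined, at both times.

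To set the 10 genes beside each other, levels per length are needed. In FPKM, the order at 24 h was LRRC8A (14.3 ± 0.647), SLC31A1 (11.8 ± 1.69), ABCC4 (9.56 ± 0.827), SLC31A2 (5.18 ± 0.505), LRRC8D (4.74 ± 0.494), ATOX1 (4.36 ± 0.187), ATP7A (1.74 ± 0.331), ATP7B (0.603 ± 0.0586), ABCG2 (0.423 ± 0.0513) and ABCC2 (0.407 ± 0.0710), as mean ± SD of 3 libraries. The ranges of neighbours overlapped for SLC31A1 with ABCC4, SLC31A2 with LRRC8D, LRRC8D with ATOX1 and ABCG2 with ABCC2. At 0 h the same 3 genes led, with LRRC8A at 12.03 ± 1.455, SLC31A1 at 11.0 ± 1.21 and ABCC4 at 8.37 ± 0.271 FPKM, and the ranges of LRRC8A and SLC31A1 overlapped, as did those of LRRC8D with SLC31A2, ATP7B with ABCC2 and ABCC2 with ABCG2. In FPKM, 5 of the 10 genes were higher at 24 h without overlap (SLC31A2, ATOX1, ABCC4, LRRC8A and LRRC8D), and 0 were lower, against 36.3% of all genes without overlap, 33.3% higher and 3.01% lower.

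The place of ATOX1 in that order depended on the length used. Count divided by FPKM gives the length behind each FPKM value relative to that of SLC31A1, and for ATOX1 it was 1.08, although its main coding transcript in GENCODE 29, of 749 bases, is 0.16 times as long as that of SLC31A1. The longest ATOX1 transcript there, of 4341 bases, is 0.92 times as long. For SLC31A2, ATP7A and ATP7B the length behind the FPKM was 0.38, 1.80 and 1.40, beside 0.38, 1.79 and 1.40 for their transcripts. LRRC8D had 0.89 beside 0.71, ABCC4 1.32 beside 1.23, LRRC8A 1.00 beside 0.92, ABCC2 1.28 beside 1.22 and ABCG2 1.01 beside 0.94, all closer than ATOX1. Divided by the transcript length, ATOX1 had the highest level of the 10, at 45.01 ± 3.064 CPM per kilobase at 24 h and 38.2 ± 5.09 at 0 h, above LRRC8A at 23.6 ± 1.84 at 24 h and 23.4 ± 2.69 at 0 h (SD, n = 3 each). That value assumes that all ATOX1 reads came from this transcript, which was not tested. The alternative was chosen after the FPKM values were seen.

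The genes lie on 7 chromosomes, with positions from GENCODE 29 on GRCh38. On chromosome 9, SLC31A2 (ENSG00000136867.10, 113150942 to 113164137) and SLC31A1 (ENSG00000136868.10, 113221562 to 113264492) lie on the same strand, and LRRC8A (ENSG00000136802.11) runs from 128882112 to 128918039. On chromosome 13, ATP7B (ENSG00000123191.13) runs from 51930436 to 52012125 and ABCC4 (ENSG00000125257.13) from 95019829 to 95301475. ATP7A (ENSG00000165240.17) lies on chromosome X from 77910656 to 78050395, ATOX1 (ENSG00000177556.11) on chromosome 5 from 151742316 to 151772532 and ABCC2 (ENSG00000023839.10) on chromosome 10 from 99782640 to 99852594. ABCG2 (ENSG00000118777.10) lies on chromosome 4 from 88090264 to 88231322 and LRRC8D (ENSG00000171492.14) on chromosome 1 from 89821014 to 89936611. IDs are as in the count table, and those of ATP7A, ATP7B, ABCC2, ABCC4 and ABCG2 have another version number in GENCODE 29. All 10 are protein-coding, and they span from 13.2 kb (SLC31A2) to 281.6 kb (ABCC4).

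The RefSeq promoter windows (GRCh38.p14) held 9 of the 10 genes, all but SLC31A2. In the 250 bases before each start, the core of the metal response element, TGCGCNC or TGCACNC on either strand, was found in 7 of their 17 windows (41.2%), spread over ATP7B, ATOX1, ABCC2, ABCC4, ABCG2 and LRRC8D, and in 24.8% of all windows. Some genes have several overlapping windows, so these are not independent. The single window of ATOX1 held 2 matches of TGCGCNC, and the single windows of SLC31A1 and ATP7A held 0 of either form. The GC box GGGCGG, on either strand, was found in 9 of the 17 windows (52.9%), over 6 of the 9 genes, and in 42.6% of all windows. There were 3 matches in the single window of SLC31A1 and 0 in those of ATP7A, ABCC2 and ABCC4. Windows of ATP7B and LRRC8D also reached 3. Matches of different motifs may share bases. These are letter matches and not measured binding.

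Other ways of calling genes also left the transport genes uncalled, except ATOX1. With limma on log2(FPKM + 1), 0 of 10 were called, against 12.4% of all genes higher and 1.03% lower. With limma on log2(FPKM + 0.1), 0 of 10 were called, against 12.2% higher and 1.02% lower. Without both libraries numbered 3, 0 of 10 were called, against 2.28% higher and 4.02% lower. With no filter on low counts, 0 of 10 were called, against 1.21% higher and 1.38% lower. With FPKM totals and without 0 h replicate 3, an alternative chosen after seeing the data, 1 of 10 was called higher, ATOX1, and 0 lower, against 21.5% and 2.75%.

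**Figure D4:**
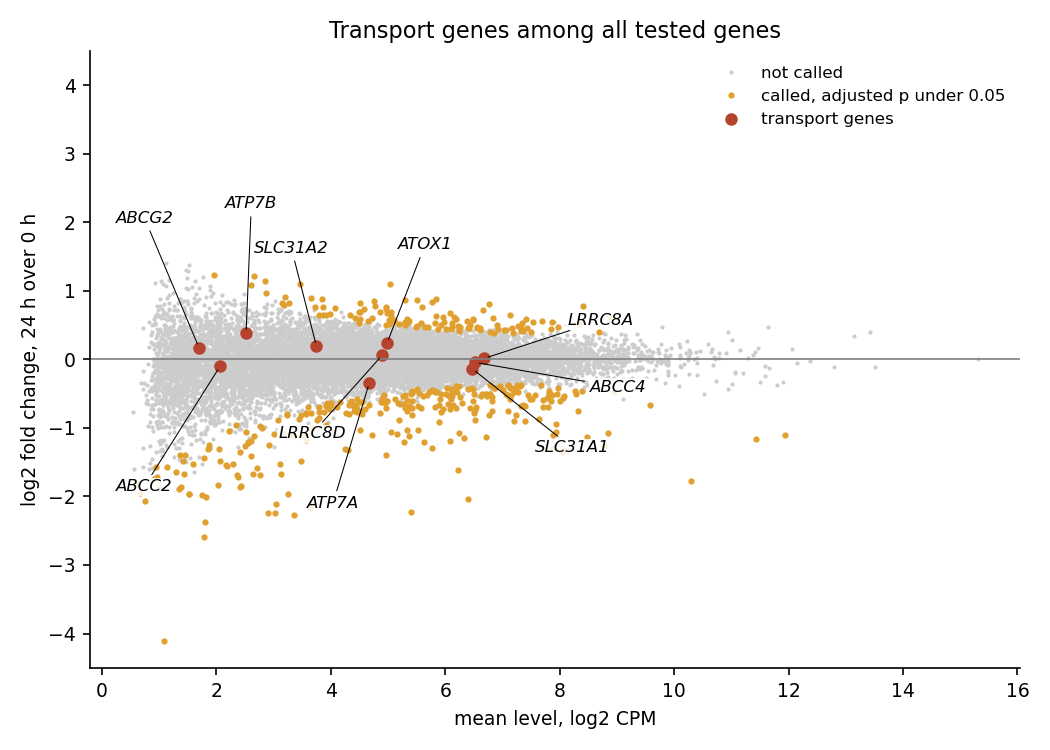
Log2 fold change (24 h over 0 h) against mean level (log2 CPM) of the 13389 tested genes. Grey points were not called, orange points were called at an adjusted p under 0.05, and red points are the transport genes, all 10 of which lie within the grey cloud.

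No gene of the wider pathways passed the edgeR test with all 6 libraries and TMM, while other settings called some. The lists of 20 copper-handling genes, 16 genes of other platinum and drug transport and 18 genes of cell volume were chosen by function. Of 17, 11 and 16 tested, edgeR called 0 higher and 0 lower in each list, and 3, 1 and 5 had an unadjusted p under 0.05, against 18.1% of all genes. The median log2 fold changes were 0.03, 0.09 and 0.04, beside -0.002 for all genes. DESeq2, given 20, 15 and 18 genes of the lists without the filter on low counts, called 0, 0 and 1. The last was AKR1B1, against 338 of all 28565 genes. With no filter on low counts edgeR called 0, 0 and 2, AKR1B1 higher and WNK4 lower, against 1.21% and 1.38% of all genes. Scaled by the FPKM totals it called 4, 2 and 5, all higher, against 17.6% of all genes.

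Among copper-handling genes the smallest p-values were those of SLC25A3, the mitochondrial carrier of phosphate and copper (0.28 ± 0.10 on the log2 scale, edgeR adjusted p = 0.160), and LOX, a copper-dependent enzyme that crosslinks collagen (-0.30 ± 0.11, edgeR adjusted p = 0.167). Of drug-handling genes they were GCLM (0.32 ± 0.11, edgeR adjusted p = 0.123) and GCLC (0.17 ± 0.10, edgeR adjusted p = 0.398), the subunits of the enzyme that starts glutathione synthesis. AKR1B1, aldose reductase, which makes the osmolyte sorbitol, was at 0.40 ± 0.13 (edgeR adjusted p = 0.110). WNK4, a kinase that senses chloride, was at -1.10 ± 0.39 with 15, 16 and 11 counts at 24 h against 25, 33 and 12 counts at 0 h (edgeR adjusted p = 0.140). Without 0 h replicate 3, 1 copper-handling gene rose (SOD1, superoxide dismutase), 1 drug-handling gene rose (GCLM), and 2 volume genes rose and 2 fell, against 4.18% and 6.72% of all genes called higher and lower, and 0 of the 10 transport genes were called.

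SLC22A2 (OCT2), the tubule's known uptake route for cisplatin, was not detectable at this depth beyond a single read. It had 0 counts in all 3 libraries at 24 h and 1 count in 1 of 3 libraries at 0 h. The apical exporter SLC47A1 (MATE1) was not analysed here. SLC22A3 and SLC47A2 did not pass the filter on low counts, nor did STEAP4, CP, HEPH, AQP1 and AQP3 of the other lists.

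**Figure D5:**
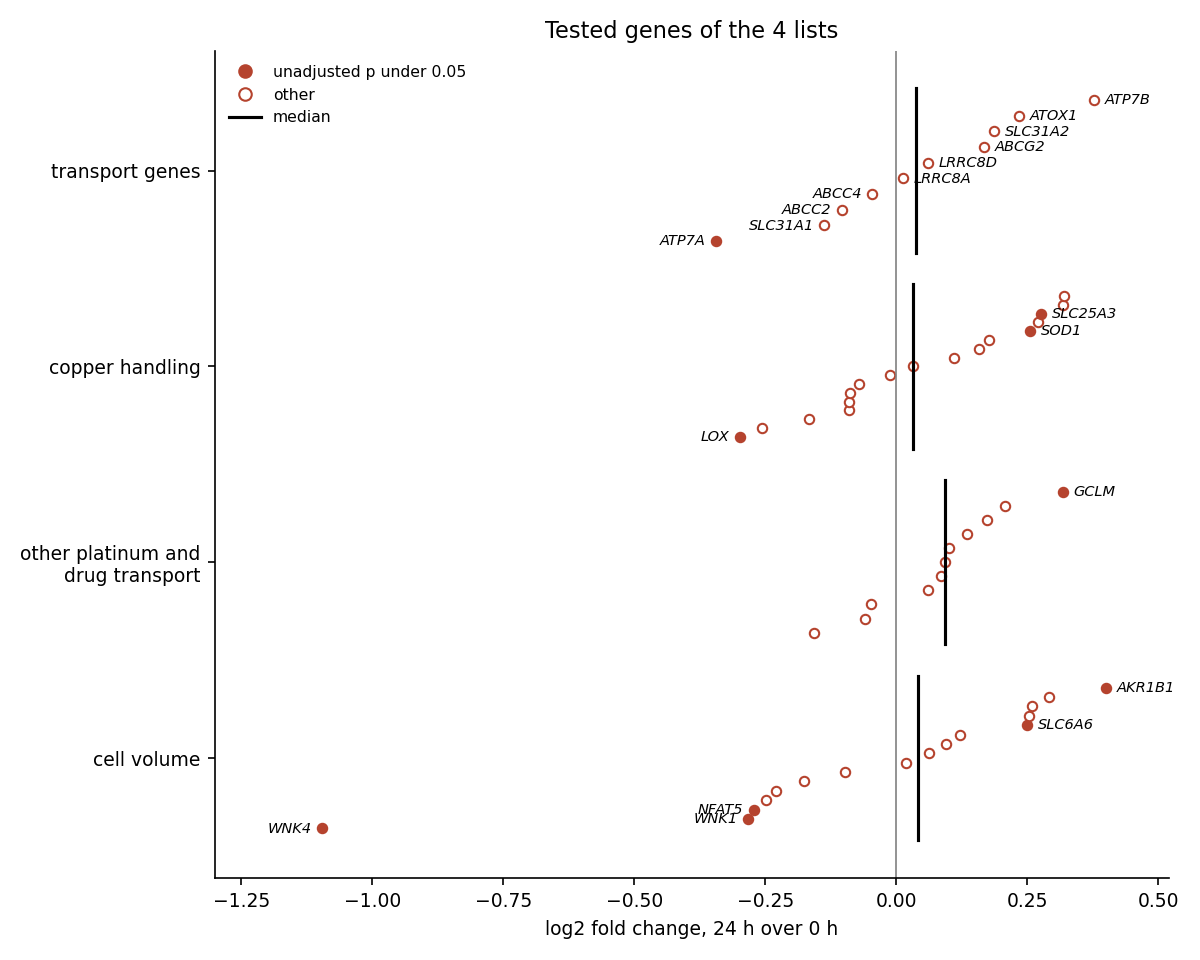
Log2 fold change (24 h over 0 h) of every tested gene of the transport genes and of the 3 wider lists. Filled points had an unadjusted p under 0.05, and black lines are medians (0.04, 0.03, 0.09 and 0.04). In each list the points lie on both sides of 0.

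Across the 6 libraries, the genes whose log2 CPM was most like that of ATP7A were YTHDC1, a reader of methylated RNA (Pearson's r = 0.998), CCNA2, cyclin A2 (r = 0.997), and HSPA9, a mitochondrial chaperone (r = 0.997). YTHDC1 had 80.7, 90.5 and 95.5 CPM at 24 h, against 92.1, 99.4 and 116 CPM at 0 h. Like ATP7A, these genes were highest in 0 h replicate 3 and lowest in 24 h replicate 1, and with 6 libraries and 13389 genes such values of r are a description of shared library order only.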

How the data were processed

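RNA-seq measured gene levels in 6 libraries. Per the labels' protocols, RNA was DNase-treated, ribosomal RNA was removed, and directional libraries were sequenced as 150-nucleotide pairs. The authors deposited read counts per gene and FPKM values, and both were used. The submitters' processing notes name TopHat2, edgeR, bcl2fastq and GRCh38. Which read counter, annotation and strand setting they used is not given in the sources used here. The design text speaks of 2 biological replicates, while 3 libraries a time are present. Nothing states that they are separate cultures, so p-values measure only the spread between these libraries, which may be technical.

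Counts at 24 h and 0 h were compared with edgeR 4.0.16 in R 4.3.3, using TMM, filterByExpr, the quasi-likelihood test, no covariates and Benjamini-Hochberg adjustment over 13389 genes. The common biological coefficient of variation was 0.103, and 95% intervals come from the quasi-likelihood F statistic. The fit was tested on simulated data. FPKM totals are library totals recovered from count divided by FPKM, in genes with at least 300 counts and an FPKM of at least 1. The members, lists and tests were chosen with earlier results of these data known. Named are all 10 genes, the 2 genes with the smallest p in each list, list genes called under an alternative, and the 3 genes most like ATP7A. Alternatives were other scalings and filters, DESeq2 1.42.0, limma 3.58.1 (voom, and on log2 FPKM with pseudocounts of 1 and 0.1), a replicate block, and leaving out libraries.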

Additional observations from a re-analysis of the deposited data

How the results depend on the processing

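Of 200 log2 fold changes of the 10 genes under alternatives, 177 kept their direction and side of the threshold, 21 reversed and 2 passed it. Under FPKM totals, values were 0.105 (SLC31A1), 0.128 (ABCC2), 0.192 (ABCC4) and 0.47 (ATOX1, called). With FPKM totals and without 0 h replicate 3, chosen after seeing the data, they were 0.173 (SLC31A1), 0.058 (ATP7A), 0.005 (ABCC2), 0.19 (ABCC4) and 0.547 (ATOX1, called). With limma on log2(FPKM + 1) they were 0.093 (SLC31A1), 0.034 (ABCC2) and 0.17 (ABCC4), and on log2(FPKM + 0.1) 0.1, 0.096 and 0.187. ABCC4 was 0.003 with no filter, and LRRC8A was -0.074 without both libraries numbered 3. Leaving out 1 library gave -0.27 to 0.055 for ABCC2, -0.048 to 0.327 for ABCG2, -0.075 to 0.08 for LRRC8A, -0.004 to 0.132 for LRRC8D, and -0.176 to 0.051 for the log2 ratio of LRRC8A to LRRC8D. The cause of these changes was not tested.

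Over all genes, 394 were called (116 higher, 278 lower). FPKM totals called 2549 (2354 higher), and 3328 (2951 higher) without 0 h replicate 3. No filter called 740 (345 higher), limma on log2(FPKM + 1) called 1795 (1657 higher, 138 lower), limma on log2(FPKM + 0.1) called 1768 (1632 higher, 136 lower), and leaving out both libraries numbered 3 called 845 (306 higher, 539 lower). Leaving out 1 library called 113 to 1497 (21 to 574 higher, 92 to 923 lower), with the fewest without 24 h replicate 2 and the most without 0 h replicate 3. Same-numbered libraries had correlations of deviations of 0.234, -0.023 and 0.41. Differently numbered libraries had -0.36 to 0.222. Whether the numbers pair the samples was not settled by these values, and nothing in the labels states it. A replicate block called 1698 genes (739 higher, 959 lower) and 0 of the 10 transport genes, with ATP7A at an edgeR adjusted p of 0.0586. It called 3 of 17 copper-handling, 1 of 11 drug-handling and 6 of 16 volume genes, against 1698 of all 13389 tested genes. Low counts limit ATP7B, ABCC2 and ABCG2 most.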
